A study of Mus musculus with 28 samples.

Results

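The genes of 10 hypothalamic neuropeptides (Oxt, Avp, Pmch, Hcrt, Trh, Agrp, Pomc, Ghrh, Gal and Cartpt) were followed along the body axes of the mouse brain. They were chosen by symbol, from known biology, and each had 1 probe on the array, so 10 of 20660 named genes are described. The samples were serial slices of whole brain, pooled into thick fractions, from male C57BL/6J mice aged 3 weeks with no treatment named in the labels. The coronal series (mouse 1) held 12 fractions, the horizontal series (mouse 2) 6 and the sagittal series (mouse 3) 10, with 1 array per fraction, so no position has a replicate and mouse and plane cannot be told apart. Coronal fraction 12 also takes in the tissue of the fraction that followed it. The labels and the study give different thicknesses for a fraction, and the labels give no direction of counting, so positions are given as fraction numbers.

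Neuropeptides are cut from larger precursors in secretory granules and act as hormones or transmitters, and many hypothalamic neurons are defined by the peptide they make. Oxytocin (Oxt) and vasopressin (Avp) are made by the magnocellular neurons of the supraoptic and paraventricular nuclei. Melanin-concentrating hormone (Pmch) and the orexins (Hcrt) are made by separate neurons of the lateral hypothalamus. Agouti-related peptide (Agrp) and the melanocortin precursor (Pomc) belong to opposing feeding neurons of the arcuate nucleus at the base of the hypothalamus, where neurons making growth hormone-releasing hormone (Ghrh) also lie. Thyrotropin-releasing hormone (Trh), galanin (Gal) and the CART peptide (Cartpt) are made in the hypothalamus and in many other brain regions.

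Oxt and Avp are neighbouring genes on 1 chromosome, and Pmch and Hcrt lie on 2 others. Over the 28 fractions together Oxt with Avp and Pmch with Hcrt were the 2 most similar pairs of members, though not within every series, and for this reason the 250 bases before the start of each are shown, as RefSeq gives them for GRCm38.p6. They lie at chr2:130575919-130576168 (plus strand), chr2:130582589-130582838 (minus strand), chr10:88090822-88091071 (plus strand) and chr11:100762932-100763181 (minus strand), and are printed 5′ to 3′ on the strand of the gene.
Oxt: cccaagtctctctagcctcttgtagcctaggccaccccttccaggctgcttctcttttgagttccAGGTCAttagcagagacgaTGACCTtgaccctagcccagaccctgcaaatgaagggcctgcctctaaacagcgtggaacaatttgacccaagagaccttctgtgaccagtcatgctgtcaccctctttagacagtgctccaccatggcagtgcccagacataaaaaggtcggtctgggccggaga
Avp: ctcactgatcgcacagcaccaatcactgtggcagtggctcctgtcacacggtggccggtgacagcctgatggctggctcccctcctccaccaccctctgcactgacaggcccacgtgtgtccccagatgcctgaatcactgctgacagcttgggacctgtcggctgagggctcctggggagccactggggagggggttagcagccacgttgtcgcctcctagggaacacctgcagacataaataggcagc
Pmch: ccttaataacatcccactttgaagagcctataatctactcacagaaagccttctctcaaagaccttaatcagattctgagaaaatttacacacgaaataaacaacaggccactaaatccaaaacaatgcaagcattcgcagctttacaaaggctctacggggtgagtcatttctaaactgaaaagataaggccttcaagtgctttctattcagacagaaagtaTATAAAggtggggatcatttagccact
Hcrt: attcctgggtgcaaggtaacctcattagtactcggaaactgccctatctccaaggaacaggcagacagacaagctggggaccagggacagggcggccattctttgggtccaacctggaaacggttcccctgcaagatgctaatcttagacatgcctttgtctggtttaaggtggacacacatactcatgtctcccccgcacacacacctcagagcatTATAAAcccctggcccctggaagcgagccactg
The capitals mark matches on either strand to 4 short motifs, none of which overlap here. The TATA box was searched as TATAAA, which 12.4% of all 32851 windows of this length held. Pmch and Hcrt each held it, beginning 27 and 33 bases before the start. The half-site of nuclear receptors was searched as AGGTCA, which 14.0% of windows held. Oxt held it 2 times, at 185 bases before the start on its own strand and at 166 on the opposite strand. The homeodomain core was searched as TAATTA (4.84% of windows) and the cAMP response element by its full palindrome (1.55% of windows), and neither was found in these 4 windows. None of the 4 motifs was found in the window of Avp. Among the other members, Cartpt held the cAMP response element at 112 bases before the start. The window of Pomc and 1 of the 2 windows of Ghrh each held the other 3 motifs, and the half-site was also in the window of Trh and in the second window of Ghrh. A window was found for 9 of the 10 members.

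Levels are log2 of the processed signal relative to the 75th percentile of each array, so 0 is the level of that percentile and a difference of 1 is a doubling. All 10 members passed the filter on dim probes. Avp was well above background on 23 of 28 arrays and Pmch on 22, and the other 8 on all 28. In bulk fractions a peptide can be low because fewer cells make it or because each cell holds less of its RNA, and these cannot be told apart. The 75th percentile of signal ran from 135 in sagittal fraction 1 to 574, and sagittal fraction 9 stood apart, since the 95th percentile of its difference from fraction 2 was 3.32 log2 over all tested probes while the median was -0.36. Horizontal fraction 6 had the lowest 75th percentile of its series (233) and a median over all probes of -2.79 log2, against -3.85 to -3.13 in the other 5 fractions. Each peak was set against the scatter of repeated spots of 1 probe on an array (median SD 0.056 to 0.0855 log2). Of the 30 peaks (10 genes in 3 series), 25 stood above the next fraction by over 2 SD of that scatter, which does not cover dissection or labelling. The share of all probes that would do so was not computed, so this count is a description and not a trait of these genes.

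Most of the peptides were sharply placed. The median span between highest and lowest fraction was 5.48 log2 over the 10 members in the coronal series, 6.18 in the horizontal and 4.25 in the sagittal, beside 1.38, 0.97 and 1.53 over all 32364 tested probes. A span over 4 log2 was found for 6, 8 and 5 members in the 3 series, beside 5.27%, 3.45% and 8.54% of all probes. The width of a peak, counted as the run of fractions within 1 log2 of the highest, had a median of 1.5, 1.5 and 2 fractions over the members, against 7, 6 and 5 over all probes. This run ends at any dip, and by the effective number of fractions (the inverse of the summed squared shares of the signal) the medians were 4.12, 2.01 and 5.08 over the members, against 11.14, 5.71 and 9.16 over all probes. In the coronal series 6 members were highest in fraction 7, which was the highest fraction of 3.36% of all probes. In the horizontal series 8 members were highest in fraction 6, the peak of 30.5% of all probes (with the array median 7, beside 10.6%). In the sagittal series 5 members were highest in fraction 5, the peak of 11.8% of all probes.

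The magnocellular peptides are described first. Oxt (probe A_55_P2161903), the hormone of milk ejection and labour, reached 5.47 in coronal fraction 7 and 4.85 in fraction 8. It lay between -2.53 and -1.14 in fractions 1 to 6 and between 0.47 and 2.21 in fractions 9 to 11, and was -1.08 in fraction 12. The gene was thus concentrated in a pair of neighbouring fractions, which held 88.3% of its summed coronal signal, and its highest fraction was 255-fold above its lowest.

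Along the horizontal axis Oxt was 4.74 and 5.04 in fractions 5 and 6 and between -2.48 and -0.54 in fractions 1 to 4, and fractions 5 and 6 held 97.7% of its signal. Along the sagittal axis it was -2.50, -2.59 and -3.09 in fractions 1 to 3, 3.36, 5.18, 4.73 and 2.52 in fractions 4 to 7 and 0.49, 0.35 and 2.41 in fractions 8 to 10. The sagittal peak lay in the middle fractions 5 and 6, 309-fold above the lowest fraction, and its effective number of fractions was 3.48, the lowest of the 10 genes in this series. This number would be 10 for a gene spread evenly over this series.

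Avp (probe A_51_P136508), the antidiuretic hormone, followed Oxt along the coronal axis. It was 4.27 in fraction 7 and 2.94 in fraction 8, against -3.24 in fraction 6 and -0.49 in fraction 9, between -6.47 and -3.91 in fractions 1 to 5 and between -2.61 and 0.44 in fractions 10 to 12. Fractions 1, 2, 4 and 5 were not well above background. Its peak was 440-fold above the dimmest probe that was well above background in its lowest fraction. Pearson's r between Oxt and Avp was 0.946 over the 28 fractions (0.959, 0.976 and 0.961 within the coronal, horizontal and sagittal series), a description over points that share arrays and neighbouring tissue.

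On the other axes Avp differed from Oxt in the relative levels of its high fractions. In the horizontal series it lay between -5.23 and -1.97 in fractions 1 to 4, and was 1.70 in fraction 5 and 3.95 in fraction 6, a step of 2.25 log2 where that of Oxt was 0.30 (with the array median Oxt was higher in fraction 5) and the middle 90% of all probes ran from -1.01 to 1.84, and fraction 6 alone held 80.6% of its signal. In the sagittal series it was 3.47, 2.74, 3.28 and 2.78 in fractions 4 to 7, against between -3.89 and -3.29 in fractions 1 to 3 and between -0.55 and 0.77 in fractions 8 to 10, a plateau of 4 fractions where Oxt had a peak of 2. Avp was lower in fraction 5 than in both neighbours, by 0.64 log2 against their mean, while Oxt was higher there by 1.13, and the middle 90% of all probes ran from -0.71 to 0.69. The value of Avp therefore lay within the range of all probes and that of Oxt outside it. Fraction 4 was on another slide than fractions 5 and 6. For fraction 6 minus fraction 5, which share a slide, both genes lay within the range of all probes (0.54 for Avp and -0.45 for Oxt, range -0.72 to 0.73).

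Pmch (probe A_52_P418814), whose peptide promotes feeding and sleep, peaked in the same coronal fraction 7 but leaned to the other side of it. It was 3.97 in fraction 6, 4.69 in fraction 7 and -0.97 in fraction 8, between -4.71 and -4.00 in fractions 1 to 5 and between -2.56 and -0.27 in fractions 9 to 12. The lowest fraction was not well above background, and the peak was 588-fold above the dimmest probe that was well above background in it. Fractions 6 and 7 held 93.4% of the signal.

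Hcrt (probe A_55_P2142341), the precursor of the wake-promoting orexins, took the same course. It was 4.16 in coronal fraction 6, 5.66 in fraction 7 and -0.58 in fraction 8, between -2.57 and -1.50 in fractions 1 to 5 and between -1.28 and 0.86 in fractions 9 to 12. Fractions 6 and 7 held 90.4% of its signal, and r between Hcrt and Pmch over the 28 fractions was 0.971 (0.983, 0.984 and 0.943 within the series). No other named gene tested was closer to either of them.

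**Figure D1:**
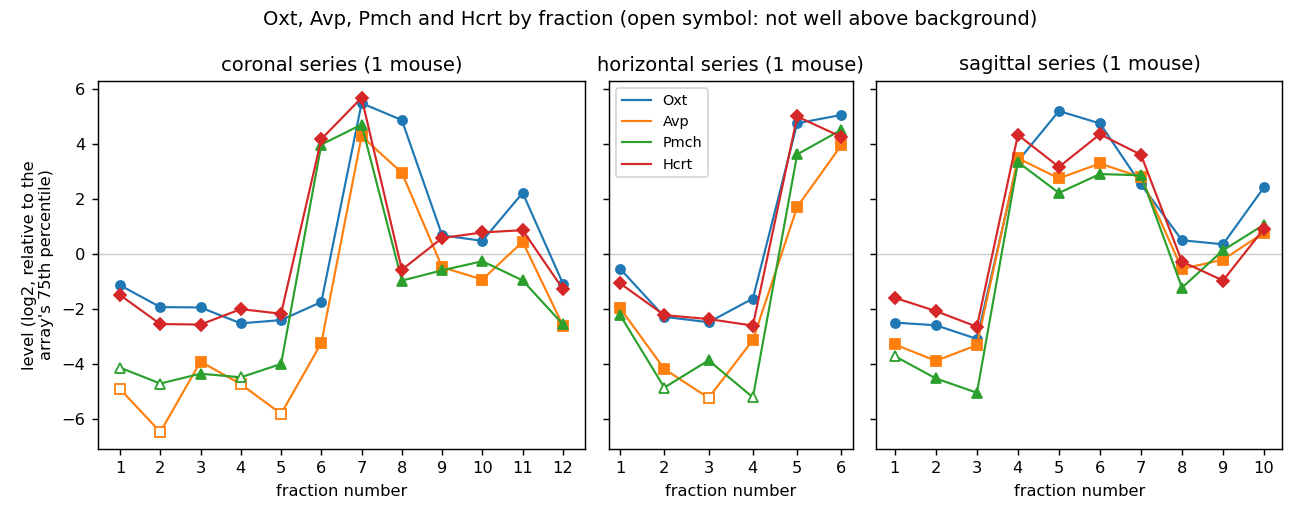
Level (log2, relative to the 75th percentile of the array) of Oxt, Avp, Pmch and Hcrt against fraction number in the coronal, horizontal and sagittal series, with 1 array and 1 mouse behind each point and open symbols where a probe was not well above background. All 4 genes are highest in coronal fraction 7, but fraction 8 is high for Oxt and Avp (4.85 and 2.94) and fraction 6 for Pmch and Hcrt (3.97 and 4.16).

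The 2 pairs were thus separated by the fractions on either side of coronal fraction 7. Fraction 8 minus fraction 6 was 6.60 log2 for Oxt and 6.18 for Avp. The same difference was -4.94 for Pmch, -4.74 for Hcrt, -3.59 for Agrp and -1.14 for Ghrh, and the middle 90% of all tested probes ran from -0.76 to 0.86. These 6 genes lay outside that range in opposite directions, and fractions 6 and 8 were hybridised on the same slide. With 1 array at each position the difference has no test.

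In the horizontal series Pmch was 3.61 and 4.50 in fractions 5 and 6, and between -5.21 and -2.22 in the other 4. Hcrt was 4.98 and 4.24 in fractions 5 and 6, and between -2.61 and -1.07 in the other 4. Fraction 5 was the highest of Hcrt, by 0.74 log2, whereas Pmch was higher in fraction 6 by 0.89. Both differences were inside the range of all probes for fraction 6 minus fraction 5 (-1.01 to 1.84).

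Along the sagittal axis Pmch was 3.33, 2.21, 2.90 and 2.85 in fractions 4 to 7, between -5.04 and -3.72 in fractions 1 to 3 and between -1.23 and 1.06 in fractions 8 to 10. Hcrt was 4.32, 3.15, 4.34 and 3.60 in the same fractions, and its levels in fractions 4 and 6 did not differ beyond the scatter of repeated spots (0.02 log2). In the outer fractions Hcrt lay between -2.65 and -1.60 (1 to 3) and between -0.97 and 0.91 (8 to 10). Both genes were therefore high in 4 fractions around the middle with a dip in fraction 5, at -0.90 log2 for Pmch and -1.18 for Hcrt against the mean of fractions 4 and 6. The dips lay outside the range of all probes (-0.71 to 0.69), but fraction 4 was on another slide. For fraction 6 minus fraction 5, on 1 slide, Pmch (0.68) was within the range of all probes and Hcrt (1.19) above it. Their effective numbers of fractions, 4.65 and 4.09, were above that of Oxt.

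Agrp (probe A_55_P2049717), the orexigenic peptide of the arcuate nucleus, was the most confined of the members along the horizontal axis. It was 4.14 in horizontal fraction 6 and between -2.78 and -2.25 in the other 5, and fraction 6 held 95.1% of its signal. In the coronal series it was 0.95 in fraction 6, 2.11 in fraction 7 and -2.63 in fraction 8, with between -3.36 and -2.53 in fractions 1 to 5 and between -1.90 and -0.78 in fractions 9 to 12. Along the sagittal axis it was -3.03 in fraction 4, 2.01 in fraction 5 and -0.41 in fraction 6, and lay between -2.93 and 0.09 in the others. Agrp had 1 high fraction on the sagittal axis, and fraction 5 exceeded the mean of its neighbours by 3.73 log2, opposite in direction to Pmch and Hcrt. On the slide of fraction 5, fraction 6 minus fraction 5 was -2.42 for Agrp, below the range of all probes.

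Pomc (probe A_52_P671543), the precursor of melanocortins, corticotropin and beta-endorphin, shared the horizontal course of Agrp but not its coronal or sagittal one. It was 5.66 in horizontal fraction 6 and between 0.64 and 1.23 in the other 5, a step of 4.82 log2 between fractions 5 and 6 where that of Agrp was 6.54. In the coronal series it lay between 0.03 and 1.73, and its 2 highest fractions, 11 and 7, did not differ beyond the scatter of repeated spots. In the sagittal series its level lay between 0.86 and 1.69 in fractions 2 to 10 and was 2.71 in fraction 1, the array with the lowest signal. Its span was 3.26-fold in the coronal series and 3.61-fold in the sagittal against 32.5-fold in the horizontal. Pearson's r with Agrp was 0.997 in the horizontal series, over 6 points of which fraction 6 alone was high in both genes. In the coronal and sagittal series r was 0.59 and 0.283.

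Pomc is also a gene of the pituitary, and in the horizontal series more pituitary markers were well above background in fraction 6 than elsewhere. Of a list of 8 such markers, 6 were well above background in that fraction, against 1 or 2 in the other horizontal fractions. Over all 55681 probes the numbers were 30909 in that fraction and 29014 to 30782 in the others. The summed level of the markers ran from -2.17 to 2.48 log2 in the series with the highest value in fraction 6. The highest summed level was 0.07 in the coronal series (fraction 7) and -0.48 in the sagittal (fraction 9). Prl (prolactin) was 0.83 in horizontal fraction 6 and not well above background on any other array. Cga (the shared subunit of the glycoprotein hormones) was 1.53 there, -0.41 in coronal fraction 7 and -1.27 in sagittal fraction 5, and Gh (growth hormone) was -2.14 in horizontal fraction 6. Tbx19, a defining factor of the pituitary cells that make Pomc, was not well above background on any array. In sagittal fraction 9, the array that stood apart, Agrp was -0.90 and Pomc 1.51. Only 4 of the pituitary markers passed the filter, and 0 of these 4 had a trend in the horizontal series. The part of pituitary tissue in the level of Pomc was not tested.

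Ghrh (probe A_55_P1985005), the releaser of growth hormone, was highest in the same fractions as Agrp. It was -0.12 and 0.61 in coronal fractions 6 and 7 and between -2.70 and -0.90 in the others. Along the sagittal axis it was 0.41 and 0.02 in fractions 5 and 6 and between -3.06 and -1.48 in the others. Its highest fraction was 9.93-fold above its lowest in the coronal series where that of Agrp was 44.4-fold. Along the horizontal axis Ghrh rose from -3.62 in fraction 2 to 0.53 in fraction 6 through -2.16, -1.58 and -0.82, a gradient where Agrp had a single step. Over the 28 fractions r with Agrp was 0.728, below r with Hcrt (0.772) and Pmch (0.739), and the closest member was Hcrt in the coronal series (0.903) and Gal in the horizontal and sagittal (0.982 and 0.934).

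**Figure D2:**
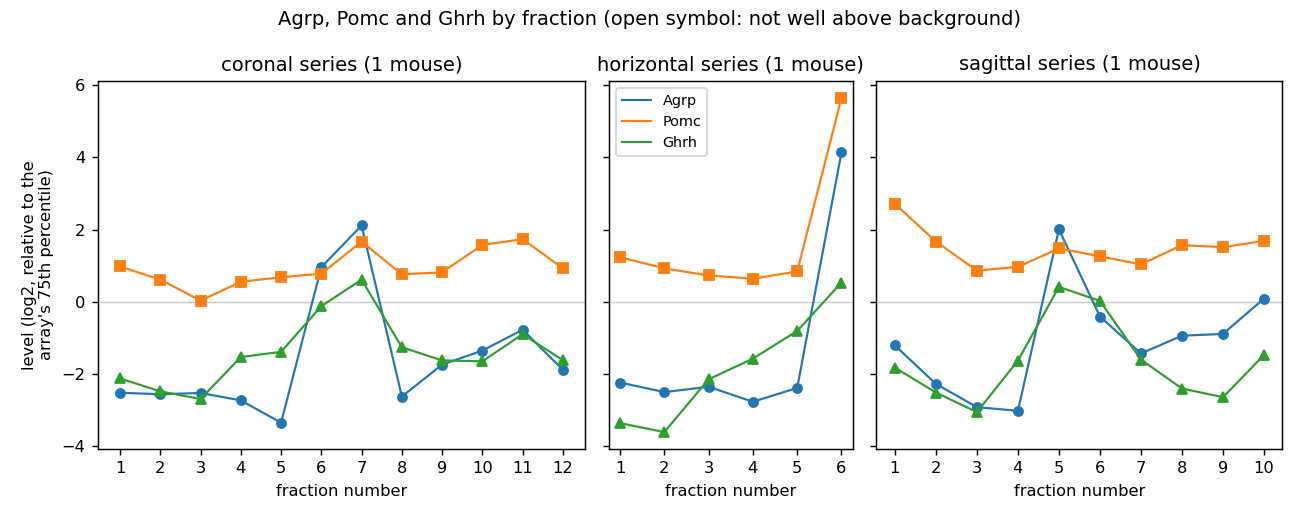
Level (log2, relative to the 75th percentile of the array) of Agrp, Pomc and Ghrh against fraction number in each series, with 1 array per point and every point well above background. In horizontal fraction 6 Agrp is at 4.14 and Pomc at 5.66, far above their other horizontal fractions, while Ghrh climbs through fractions 3 to 6.

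Trh (probe A_55_P2071349), known for the thyroid axis, was highest away from coronal fraction 7. It was 4.23 and 5.24 in coronal fractions 11 and 12, 2.55 and 3.13 in fractions 1 and 2, and 2.57, 2.71 and 2.72 in fractions 6 to 8. Between them it was 0.24 and -0.25 in fractions 3 and 4 and 0.95 and 1.89 in fractions 9 and 10, so fractions 6 to 8 were 1 of 3 separate stretches for this gene. The peak in fraction 12 was 1.01 log2 above fraction 11 and 44.9-fold above fraction 4. In the horizontal series Trh ran from -1.70 in fraction 1 to 3.73 in fraction 6. In the sagittal series it was lowest in fraction 1 (-0.15) and highest in fraction 6 (3.23), with 0.50 in fraction 9 and between 1.82 and 2.96 in fractions 2 to 5, 7 and 8.

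Gal (probe A_51_P258281), a peptide of many hypothalamic and brainstem neurons, was the most even member along the coronal axis after Pomc. It was 2.79 and 2.75 in fractions 1 and 2, which did not differ beyond the scatter of repeated spots, 2.18 and 2.07 in fractions 7 and 8, 1.68 and 1.88 in fractions 11 and 12, and not below 0.74 anywhere. Dbh, the enzyme that makes noradrenaline, was highest in coronal fraction 4 (2.88), where Gal was 1.48. Along the horizontal axis Gal climbed from -0.40 in fraction 1 to 2.56 in fraction 6 without a reversal. Along the sagittal axis fractions 5 and 6 (2.55 and 2.54) were equal within the scatter of repeated spots and stood above the other 8, which lay between -0.12 and 1.37.

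Cartpt (probe A_52_P208649), whose peptide restrains feeding, had several high fractions. In the coronal series it was 3.93 in fraction 5, 3.62 in fraction 11, 3.12 in fraction 12 and 3.04 in fraction 9, and lowest in fraction 3 (0.22). In the sagittal series it was 3.98 in fraction 5, with 3.45 and 3.38 at the ends and between 1.83 and 2.85 between them. Fraction 5 was thus its peak on both axes, and Ucn (urocortin), a marker of the Edinger-Westphal nucleus where Cartpt is known to be made, was -0.12 in coronal fraction 5, its highest coronal fraction, and -0.37 in sagittal fraction 5, below 0.12 in fraction 1. The part of that nucleus in the Cartpt peaks was not tested. In the horizontal series Cartpt rose from 1.17 in fraction 1 to 3.56 in fraction 5, equal to fraction 6 (3.51) within the scatter of repeated spots.

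**Figure D3:**
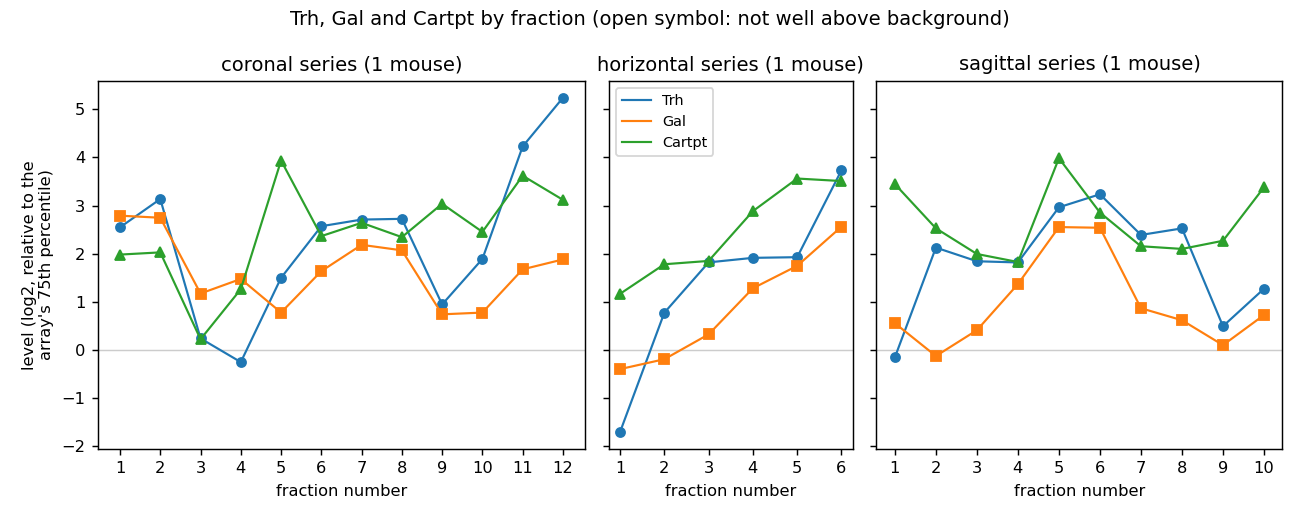
Level (log2, relative to the 75th percentile of the array) of Trh, Gal and Cartpt against fraction number in each series, with 1 array per point and every point well above background. The coronal peaks lie in fraction 12 for Trh (5.24), fraction 1 for Gal (2.79) and fraction 5 for Cartpt (3.93), not in fraction 7.

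The order of widths was similar between the coronal and sagittal axes only in part. By the effective number of fractions, the narrowest in the coronal series were Hcrt (1.98), Avp (2.07), Pmch (2.16), Oxt (2.44) and Agrp (3.27), followed by Trh (4.98), Ghrh (7.39), Cartpt (8.84), Gal (9.71) and Pomc (10.68), beside a median of 11.14 over all probes. In the sagittal series the narrowest were Oxt (3.48) and Agrp (3.53), then Hcrt (4.09), Avp (4.58) and Pmch (4.65), beside 9.16 over all probes. Pomc, the widest member on these axes, was among the narrowest on the horizontal axis (1.39, after 1.11 for Agrp and before 1.47 for Avp), beside 5.71 over all probes. Neighbours in these orders have no error to be judged by.

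**Figure D4:**
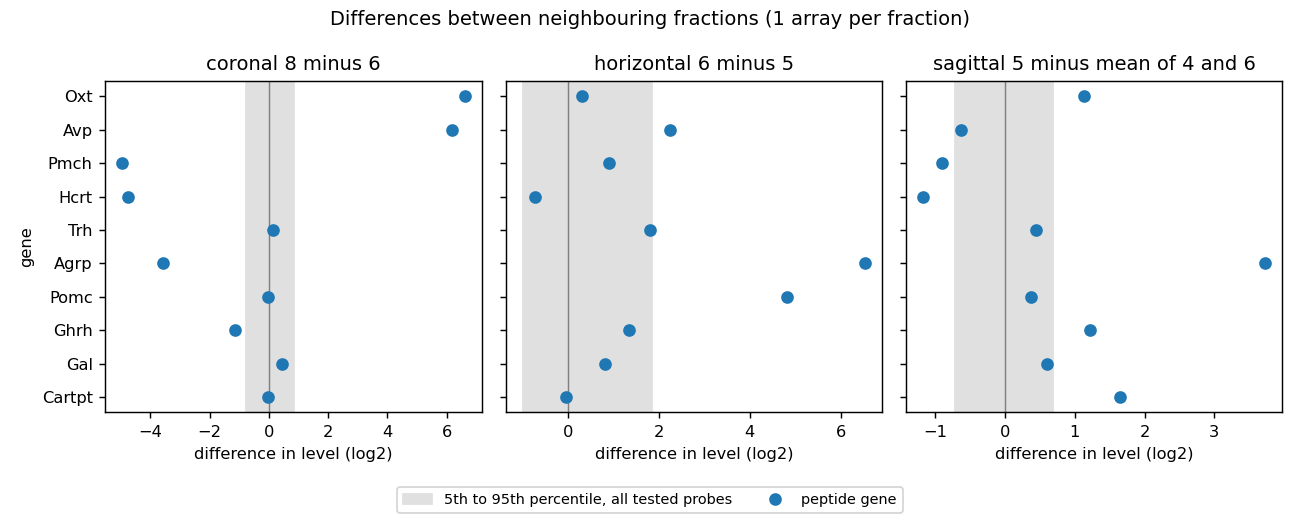
Difference in level (log2) between chosen fractions for each of the 10 genes (points, 1 array per fraction), with the 5th to 95th percentile of all 32364 tested probes as a grey band. Oxt and Avp lie at the far right and Pmch, Hcrt and Agrp at the far left for coronal fraction 8 minus 6, Agrp (6.54) and Pomc (4.82) stand out for horizontal fraction 6 minus 5, and Agrp (3.73) for sagittal fraction 5 against its neighbours.

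To ask which of these profiles differ from a flat line by more than their scatter around a smooth curve, each series was fitted over all tested probes with a natural cubic spline in limma (Benjamini-Hochberg adjustment, threshold 0.05). The residual around the curve is the only error here, and it grows where a gene has a sharp peak. Along the horizontal axis 6 of 10 members had a trend, beside 15.8% of all probes, with fitted ranges and adjusted p of 3.08 log2 and 0.0169 for Gal, 4.07 and 0.0200 for Ghrh, 9.28 and 0.0205 for Avp, 2.58 and 0.0256 for Cartpt, 4.39 and 0.0398 for Trh, and 8.37 and 0.0436 for Oxt. All 6 were highest towards fraction 6 of the fitted curve. Pmch (adjusted p 0.0550), Pomc (0.0782), Agrp (0.0828) and Hcrt (0.0845) did not pass. Without fraction 3 or without fraction 4 the count was 0, beside 0.0% of all probes, and without fraction 1 or 2 it was 3, beside 6.84% and 10.3%. Without fraction 6 it was 4, beside 4.13%, and the fitted range of Agrp, whose peak that fraction is, was 0.31 log2. It was 10 without fraction 5, with the array median and with normexp, beside 17.8%, 59.8% and 27.8% of all probes. With 1 spline degree of freedom fewer it was 0, beside 0.00309% of all probes, and the adjusted p of the 6 genes ran from 0.0733 for Gal to 0.407 for Avp.

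Along the coronal axis 1 of 10 members had a trend, Avp (fitted range 7.36 log2, adjusted p 0.0215 by limma), beside 33.7% of all probes. The fitted curve was highest in fraction 9, whereas the measured level was highest in fraction 7. The adjusted p of Avp was 0.144 with the slide as an added term, when 0.745% of all probes were called. Over fractions 3 to 10, which share a slide, it was 0.0511, and it was 0.0662, 0.0507 and 0.059 without fraction 2, 4 or 8. With 1 spline degree of freedom fewer it was 0.0538, while 38.5% of all probes were called. Oxt (adjusted p 0.0521) and Pmch (0.0941) did not pass. Along the sagittal axis limma called 0 of 10 members, beside 14.7% of all probes. At an unadjusted p under 0.05 it had 4 (Avp, Oxt, Pomc and Trh), near the 32.9% of all probes at that p. With the slide as an added term it called 2, Agrp and Cartpt, beside 7.79% of all probes. Without fraction 10 it called 5, Avp, Hcrt, Oxt, Pomc and Trh, beside 47.1% of all probes, a share near that of the members.

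Fixed blocks of fractions called none of the members. Coronal fractions 5 to 8 against the rest, horizontal fractions 4 to 6 against 1 to 3 and sagittal fractions 5 and 6 against the rest each had 0 of 10 members called by limma and 0.0% of all probes called higher, while 1 probe, no member, was called lower in the coronal block. At an unadjusted p under 0.05 the members were 2 (Ghrh and Pmch), 4 (Avp, Cartpt, Gal and Ghrh) and 5 (Agrp, Gal, Ghrh, Oxt and Trh), all higher in the named block, beside 14.7%, 5.51% and 5.7% of all probes at that p in either direction. The coronal count was thus near the share of all probes.

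The outer sagittal fractions were uneven, a comparison chosen after the levels were seen. If fractions 1 to 10 run from side to side, fractions 8, 9 and 10 mirror 3, 2 and 1. Oxt was 2.41, 0.35 and 0.49 in fractions 10, 9 and 8 and -2.50, -2.59 and -3.09 in their mirrors, so its differences were 4.91, 2.94 and 3.58 log2. For Avp they were 4.06, 3.67 and 2.76, and for Pmch 4.77 (fraction 1 was not well above background), 4.65 and 3.81. Hcrt was also higher in fractions 10, 9 and 8, by 2.51, 1.11 and 2.36, and Agrp by 1.30, 1.39 and 1.98. The mean of the 3 differences was 1.99 for Hcrt and 1.56 for Agrp, both above the 95th percentile of all probes (1.32). The means of the other 5 members lay between -0.16 and 0.29, with single differences of 1.42, -1.63 and 0.68 for Trh, -1.03, -0.16 and 0.71 for Pomc, -0.13 to 0.65 for Ghrh, 0.17 to 0.23 for Gal and -0.26 to 0.11 for Cartpt. Thus 3 of 10 members exceeded 2 log2 in each of the 3 pairs (1 with normexp), beside 0.0896% of all probes (29). The mean over the 3 pairs exceeded 2 log2 for the same 3 members, beside 2.23% of all probes, and Hcrt lay just under it. Since the pattern and the 2 log2 were chosen on these genes, these counts are a description.

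Fractions 1 to 4 were hybridised on a different slide from fractions 5 to 10, so side and slide cannot be told apart. In the next pair, fraction 7 minus 4, the 3 genes had the opposite sign, at -0.84, -0.69 and -0.48. A like step was seen along the coronal axis, where fractions 9 to 11 all lay above fractions 1 to 5 for Oxt, Avp, Pmch, Hcrt and Agrp, 5 of 10 members beside 8.52% of all probes. This comparison too was chosen after the levels were seen, so its count is a description. The gaps between the lowest of fractions 9 to 11 and the highest of fractions 1 to 5 were 1.61, 2.98, 3.03, 2.07 and 0.78 log2, and fractions 9 and 10 share their slide with fractions 3 to 8. The 75th percentile of signal was 269, 176 and 205 in sagittal fractions 8 to 10. In sagittal fractions 1 to 3 it was 135, 365 and 476. In the coronal series it was 419, 251 and 292 in fractions 9 to 11, against 363 to 574 in fractions 1 to 5. On both axes the outer fractions with raised levels lie on 1 side of the highest ones. The part of array signal, or of tissue or RNA carried over between fractions, in their levels was not tested.

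**Figure D5:**
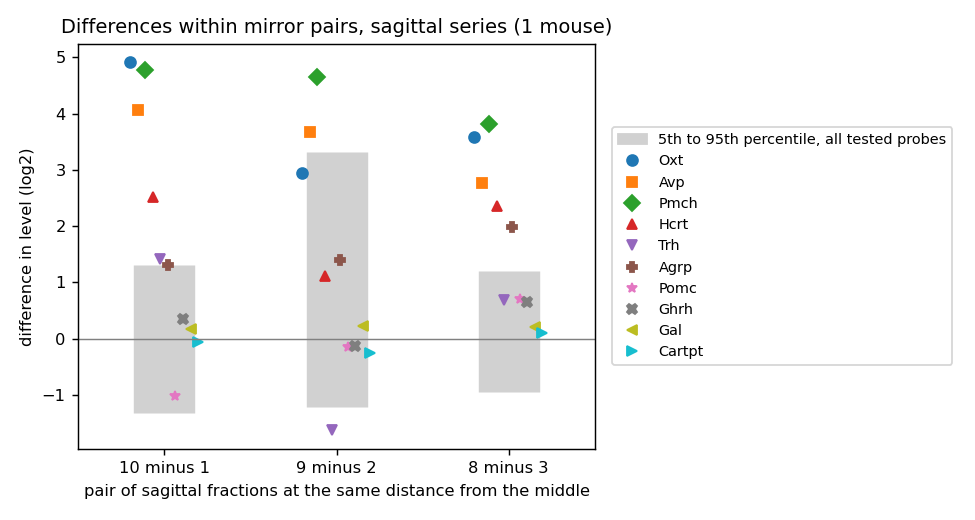
Difference in level (log2) within pairs of sagittal fractions that mirror each other about the middle for each of the 10 genes (symbols, 1 array per fraction), with the 5th to 95th percentile of all tested probes in grey. Pmch and Avp lie above the grey range in each of the 3 pairs (at least 3.81 and 2.76), and Oxt in 10 minus 1 and 8 minus 3, while the range of 9 minus 2 reaches 3.32.

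Outside the members, the nearest profiles over the 28 fractions were given for 6 of the genes by Pearson's r, as a description over arrays that share slides and neighbouring tissue. For Agrp they were Cga (0.819), Npvf (0.795) and Fezf1 (0.736), which were well above background on 4, 7 and 6 arrays. For Ghrh they were Zcchc12 (0.853), Stk33 (0.834) and Npvf (0.819), for Gal Gpx3 (0.852), Shisal2a (0.850) and Pcbd1 (0.831), and for Pomc Gm3448 (0.883), Trak1 (0.852) and Tatdn1 (0.828). Of these, Shisal2a and Tatdn1 were well above background on 13 and 11 arrays. For Trh they were Gm5643 (0.784), Vsig8 (0.771) and Heyl (0.770), and for Cartpt Gstm6 (0.769), Wdr6 (0.763) and Ass1 (0.718). For Oxt, Avp, Pmch and Hcrt the 3 nearest genes were the other 3 of these peptides.

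Receptors of the peptides and other genes of the pathway were read beside the shares of all probes with a trend, 33.7%, 15.8% and 14.7% in the coronal, horizontal and sagittal series. Of 14 receptor genes 9 were tested, and 7, 4 and 1 of them had a trend. Oxtr was highest in coronal fraction 6 (0.14), Mchr1 in 9 (-0.94) and Hcrtr1 in 4 (0.93). Genes that process precursors and build granules, such as Pcsk2 and Cpe, were all 10 tested, with a median coronal range of 1.09 log2 and trends for 5, 1 and 1. Of 10 transcription factors of the hypothalamus 7 were tested, and 3, 6 and 0 had a trend. Trhr2 and Fezf1 passed the filter in the horizontal series through 1 fraction alone, so the horizontal counts are a description. Of the factors, Nr5a1 and Tbx3 were well above background in every coronal and horizontal fraction. Both were highest in horizontal fraction 6 (0.10 and 1.98), but in the coronal series Nr5a1 was highest in fraction 7 (-0.34) and Tbx3 in fraction 12 (0.63). In the sagittal series both were highest in fraction 9 (0.31 and 2.18), the array that stood apart. The summed level of the factors was also highest there. Of the other tested factors, Nkx2-1 was highest in sagittal fraction 5, Fezf1 in 6, Hmx2 and Hmx3 in 9 and Rax in 1. In fraction 9, 3 of the 10 factors were well above background, beside 29503 of 55681 probes. In fractions 5 and 6 they were 8 and 7, beside 30330 and 29838 probes. Sim1 and Otp, factors of Oxt and Avp neurons, were well above background on 2 and 0 arrays.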

How the data were processed

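Each deposited array file holds the intensity of every spot of 1 fraction, extracted and background-subtracted by the authors with Agilent Feature Extraction 10.5.1.1. A log2 table of 44721 probes from the authors was scaled to the 75th percentile of each array (column medians -2.63 to -1.63). For the 10 members these equalled the values used here, up to an offset per array of 0.00111 to 0.00758 (largest deviation 1.03e-06).

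Outlier spots (108 to 176 per array, of 59305 that were not controls) were left out, spots of a probe were averaged, and each array's 75th percentile was subtracted from the log2 processed signal. No spot was saturated (0). Between 24822 and 34240 of 55681 probes were well above background, which here means that at least 0.5 of the spots of a probe carried that flag. Probes that reached this in at least 1 coronal, 1 horizontal and 1 sagittal fraction were tested (32364), and 27235 probes (48.9%) were named through RefSeq (GRCm38.p6, for names and upstream windows only). Where a member's lowest fraction was not well above background, its fold is given against a reference level. That level is the array's dimmest probe with the flag, or the member's own level if that is higher. Probes without the flag can lie above the dimmest probe with it, so such a fold is not a strict lower bound.

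Trends along each axis were tested with limma 3.58.1 in R 4.3.3 by an F-test on a natural spline over fraction numbers (3 degrees of freedom, or 2 in the horizontal series), checked on simulated data, and profiles were computed in Python 3.11.15. Fractions of 1 mouse served as units, so p-values describe these 3 brains alone. The number of arrays limits the precision.

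Alternatives were the array median or quantile normalization, normexp correction (offset 50, on the median foreground), no filter on dim probes, 1 spline degree of freedom fewer, the slide as a term, single slides, fractions left out in turn, other widths, and the authors' log2 values for the peaks. The members, gene lists and tests were chosen with earlier results of these data known. The text names the 10 members, their 3 nearest genes by Pearson's r, and marker or pathway genes that a result turns on or that had a trend in all 3 series.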

Additional observations from a re-analysis of the deposited data

Results flagged for a closer look

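In 20 sets of fractions (10 genes in the horizontal and sagittal series), 3 values stood far from the others, with a gap to the next fraction too large a share of the whole range by Dixon's 95% value. Chance would give about 1 in 20 sets, here 1. The coronal series has too many fractions for this comparison. Agrp in horizontal fraction 6 was above the other 5 fractions by 0.923 of its range. Pomc in horizontal fraction 6 was above the others by 0.881 of its range. Pomc in sagittal fraction 1 was above the other 9 by 0.554 of its range, on the dimmest array of the 28 (75th percentile of signal 135).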

How the results depend on the processing

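The fraction in which a member was highest was the same in 115 of 120 comparisons with other settings. These include the authors' log2 values, which for the members equal the values used here up to a small offset per array. Their match was therefore fixed beforehand and is no check on the processing. The 5 exceptions were Oxt in the horizontal series (fraction 5 with the array median), Cartpt in the horizontal (6 with quantile normalization), Hcrt in the sagittal (4 with the array median and with normexp) and Gal in the sagittal (6 with the array median). Counts of members with a trend moved more, and the share of all probes called by the same fits (given in brackets) moved too. The cause was not tested. The coronal count of 1 was 0 with 1 spline degree of freedom fewer (38.5%), 0 over fractions 3 to 10 alone (12.9%), 0 with the slide as a term (0.745%) and 2 with normexp (39.5%). As fractions were left out in turn, it was 0 without fraction 2, 4 or 8 (25.1%, 26.9% and 28.8%). It reached 2 without 5, 7, 9 or 10 (28.6%, 28.4%, 29.2% and 34.4%). The horizontal count of 6 was 0 with 1 spline degree of freedom fewer (0.00309%), and 10 with the array median (59.8%) and with normexp (27.8%). It ran from 0 (without fraction 3 or 4, each 0.0%) through 3 (without 1 or 2, 6.84% and 10.3%) and 4 (without 6, 4.13%) to 10 (without 5, 17.8%). The sagittal count of 0 was 2 with 1 spline degree of freedom fewer (12.7%), with normexp (44.1%) and with the slide as a term (7.79%), and ran from 0 to 5, with 5 without fraction 10 (47.1%), 2 without 9 (38.8%) and 1 without 3 (6.98%). Members called by the fixed blocks were 0 in each alternative run, beside at most 4 of all tested probes called higher. These fits called almost no probe at all, so the 0 says little about the members. Of 470 trends of single members under an alternative, 406 stayed on their side of the threshold, 32 crossed to it and 32 left it. The median width was 4.12 by effective number in the coronal series (1.5 by the run), and 4 within 2 log2 and 5.08 by effective number in the sagittal (2 by the run). With normexp 1 member in place of 3 exceeded 2 log2 in the 3 outer mirror pairs. The mean over probes of a gene was not run, since each member has 1 probe. Dim levels of Avp and Pmch limit what the low fractions can show. No paired analysis was possible because the fraction numbers name positions on different axes of different mice.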

Other observations

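Among 20 other neuropeptide genes of the hypothalamus 16 were tested, and 8, 6 and 2 of them had a trend in the coronal, horizontal and sagittal series, beside 33.7%, 15.8% and 14.7% of all probes. Kiss1 (kisspeptin) and Vip (vasoactive intestinal peptide) had one in all 3. Of the 6 with a horizontal trend, Kiss1, Vip and Npy were highest in fraction 1, Nts (neurotensin) in fraction 5 (2.41), and Tac1 (tachykinin 1) and Npvf in fraction 6, Tac1 at 4.94. Kiss1 was 0.23 in horizontal fraction 1 and -2.52 in fraction 5, and Vip was 2.62 in fraction 1 and -0.03 in fraction 6. Npy (neuropeptide Y), which Agrp neurons also make, was 5.14 in horizontal fraction 1 and 3.04 in fraction 6, where Agrp was 4.14 and not above -2.25 elsewhere in that series. Npvf, made by neurons near the arcuate nucleus, was -1.23 in horizontal fraction 6 and not well above background in the other 5. It passed the filter in that series through this fraction alone, so the horizontal count of 6 is a description.

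Markers of other cell groups were measured beside these. Their trends in the coronal, horizontal and sagittal series were read beside 33.7%, 15.8% and 14.7% of all probes, and differences between series were not tested. Of the 3 genes listed for noradrenaline neurons, Th had a trend in all 3 series, and Dbh and Slc6a2 in none. Th was highest in coronal fraction 12, and Dbh and Slc6a2 in fraction 4. The trend of Th is therefore not read as one of noradrenaline neurons. Trends were found for 3, 0 and 0 of 3 serotonin markers and 0, 3 and 1 of 5 choroid plexus markers. They were found for 0, 1 and 2 of 4 thalamus markers and 0, 0 and 0 of 4 tested pituitary markers, and Ucn had none.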
